A study of Mus musculus with 12 samples.

Results

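The OAS family of the mouse was followed through 12 RNA-seq libraries of CD4+ T cells in which the STING pathway was or was not engaged. The family was taken as 8 genes, Oas1a, Oas1b, Oas1c, Oas1g, Oas2, Oas3, Oasl1 and Oasl2, found by gene symbol or Ensembl identifier among the 38924 gene identifiers of the count files. The list leaves out Oas1d, Oas1e, Oas1f and Oas1h, which had at most 5 counts in any library. All 8 were present in the counts, and 7 of them also in a log2 expression table of 11921 genes, where Oas1b was not listed.

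The T cells came from spleens of C57BL/6 wild-type (WT) mice and of STINGgt/gt (Goldenticket) mice, both aged 8 to 12 weeks. STINGgt/gt animals carry a missense allele of Tmem173, the gene encoding STING, and their libraries are labelled as STING KO. Sorted naive cells were stimulated through CD3 and CD28 for 2 days and left to rest for 1 day. Each genotype was then exposed to the solvent DMSO or for 16 h to 10-carboxymethyl-9-acridanone (CMA), an acridone compound that binds and activates mouse STING. Each of the 4 groups held 3 libraries. The source describes biological replicates but the labels give only numbered samples, so the p-values measure the spread between these libraries.

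2′-5′-oligoadenylate synthetases (OAS) are interferon-induced sensors of double-stranded RNA. Once bound to it, the active enzymes join ATP into 2′-5′-linked oligoadenylates (2-5A), which act as second messengers of the antiviral response. The mouse has an expanded Oas1 cluster, single Oas2 and Oas3 genes and a pair of OAS-like genes, Oasl1 and Oasl2, whose proteins carry ubiquitin-like domains. In the interferon response, transcription factors activated downstream of the interferon receptor bind the interferon-stimulated response element (ISRE) in such promoters.

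All 8 genes lie on mouse chromosome 5 (build GRCm38). Oasl2 (chr5:114896936-114912234) and Oasl1 (chr5:114923240-114937915) are neighbours on the plus strand. At a distance of 5.79 Mb follows a second cluster of 177 kb that holds Oas2 (chr5:120730333-120749853), Oas3 (chr5:120753098-120777661), Oas1c (chr5:120800194-120812514), Oas1b (chr5:120812635-120824163), Oas1g (chr5:120876142-120887613) and Oas1a (chr5:120896256-120907521). Within this cluster Oas1b is read from the plus strand and the other 5 members from the minus strand. The annotation lists 7 members as protein coding and Oas1b as a polymorphic pseudogene, since common laboratory strains carry a truncated form of this flavivirus resistance gene. Oas1c and Oas1b start back to back, with 120 bases between them.

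Promoter sequences (RefSeq, GRCm38.p6) matched 6 of the 8 members. Those of the Oas1 genes and Oas3 are shown because a short run recurs next to the starts of the Oas1 genes, which share a response to CMA but differ in size of response. Each is written 5′ to 3′ on the strand of the named gene and ends at its start, and capitals mark matches to the ISRE core GAAANNGAAA on either strand. For Oas1c the stretch between the Oas1c and Oas1b starts is given, so it serves both genes.
Oas1a promoter, chr5:120907526-120907775, minus strand: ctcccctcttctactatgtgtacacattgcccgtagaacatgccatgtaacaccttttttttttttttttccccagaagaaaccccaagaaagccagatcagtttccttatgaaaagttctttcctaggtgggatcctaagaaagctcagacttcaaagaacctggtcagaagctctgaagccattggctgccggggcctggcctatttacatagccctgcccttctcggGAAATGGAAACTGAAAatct
Oas1g promoter, chr5:120887614-120887863, minus strand: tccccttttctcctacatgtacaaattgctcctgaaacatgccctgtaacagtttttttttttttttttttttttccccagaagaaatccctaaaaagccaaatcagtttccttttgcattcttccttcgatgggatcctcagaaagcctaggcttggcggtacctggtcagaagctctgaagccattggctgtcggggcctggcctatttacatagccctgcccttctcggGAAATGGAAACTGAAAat
Oas1c and Oas1b, chr5:120812515-120812634, minus strand: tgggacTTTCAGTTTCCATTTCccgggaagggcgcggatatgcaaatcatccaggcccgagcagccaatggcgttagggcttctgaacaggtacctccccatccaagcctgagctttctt
Oas3 promoter, chr5:120777662-120777909, minus strand: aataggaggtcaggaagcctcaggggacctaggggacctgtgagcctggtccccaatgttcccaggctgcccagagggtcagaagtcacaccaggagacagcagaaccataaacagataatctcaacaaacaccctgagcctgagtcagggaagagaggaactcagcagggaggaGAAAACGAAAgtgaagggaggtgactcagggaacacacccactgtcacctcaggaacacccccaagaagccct
The sequences of Oas1a and Oas1g upstream of the start were identical at 82.8% of 256 aligned positions. Both ended in the same 16-base run, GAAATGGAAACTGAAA, which holds overlapping matches to the ISRE core and stops 4 bases before the RefSeq start of Oas1a and 2 bases before that of Oas1g. The RefSeq start of Oas1a lies 4 bases upstream of the annotated start given above. The same run lay between Oas1c and Oas1b, on the strand of Oas1b, and stopped 6 bases before the annotated Oas1b start. Of 32851 RefSeq windows of 250 bases, 7 held the run on either strand, a share of 0.0213%. They belonged to Oas1a, Oas1c, Oas1g and the apolipoprotein L genes Apol9a and Apol9b. Oas3 carried 1 match to the core, 63 bases from the end of its window. The core occurred in 2.98% of all 250-base windows and in 1.22% of the 120 bases next to the start. The letters of the core were not found in the 250 bases before Oasl1 and Oasl2, nor before Oas1f and Oas1h, Oas1 genes with next to no reads here. They were also not found before Akap7, a further gene of the 2-5A pathway that rose with CMA in WT T cells. The sequence TTCNNNGAA, the core of a gamma-activated site, was matched at 1 place in Oas1a and in none of the other 5 windows, against 7.02% of all windows.

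The libraries held 27414450 to 43784910 reads on genes, and alignments that were not unique, 27.8% to 30.3% of all entries, were not counted on any gene. Values are CPM, read counts relative to the library total after TMM scaling (edgeR's cpm). Replicates of each group differed by more than sampling noise, so no library appeared to be deposited a second time. Tmem173 lay between 168 and 190 CPM in all DMSO libraries and did not pass the test between genotypes (adjusted p = 0.0827, edgeR), although the WT values were all above the STINGgt/gt values. Because the allele is a missense change, its RNA level does not check the genotype. The T cell genes Cd3d, Cd3e, Cd3g, Cd4, Cd5 and Cd28 summed to 2175 to 2181 CPM in WT with CMA and to 2360 to 2558 CPM in the other libraries. In WT T cells Cd3e was 1.58-fold, Cd3g 1.31-fold and Cd3d 1.14-fold lower with CMA and Cd4 was higher, and the part of this in the OAS values was not tested.

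At rest the family was carried by Oas3. In WT T cells with DMSO, Oas3, the largest synthetase, had 14.6 ± 1.23 CPM per kb of exon (SD, n = 3), against 2.88 ± 0.260 for Oas1b, 2.48 ± 0.571 for Oas1a and 2.38 ± 0.177 for Oas1c. Oas1a overlapped with both of its neighbours in this order, but all Oas1b values (2.58 to 3.08 CPM per kb) were above the Oas1c values (2.18 to 2.52). Oasl1 followed at 0.803 ± 0.0336 CPM per kb, then Oas2 at 0.483 ± 0.0948 and Oasl2 at 0.478 ± 0.0336, which overlapped with each other. Oas1g was at the limit of detection with counts of 1, 0 and 2. In STINGgt/gt T cells with DMSO the order was Oas3, Oas1b, Oas1c, Oas1a, Oasl2, Oas2 and Oasl1, and of these neighbours only Oas2 and Oasl1 overlapped. Levels per kb use the whole exon length. Oas1a and Oas1g share sequence whose reads are not counted, so their levels are understated and their places in both orders are not firm.

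CMA raised the OAS family in WT T cells. With edgeR's quasi-likelihood test, 8 of 8 members were higher with CMA than with DMSO at a Benjamini-Hochberg adjusted p under 0.05, where 33.0% of the 13811 genes tested were higher and 37.4% lower. The CMA and DMSO libraries did not overlap for any member, as was the case in the same direction for 33.5% of all genes. Oas1g passed the filter on low counts through the CMA libraries alone, so it had to differ and adds nothing to the count. The other 7 were all called, with a median log2 fold change of 3.16, against -0.04 over all genes tested.

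**Figure D1:**
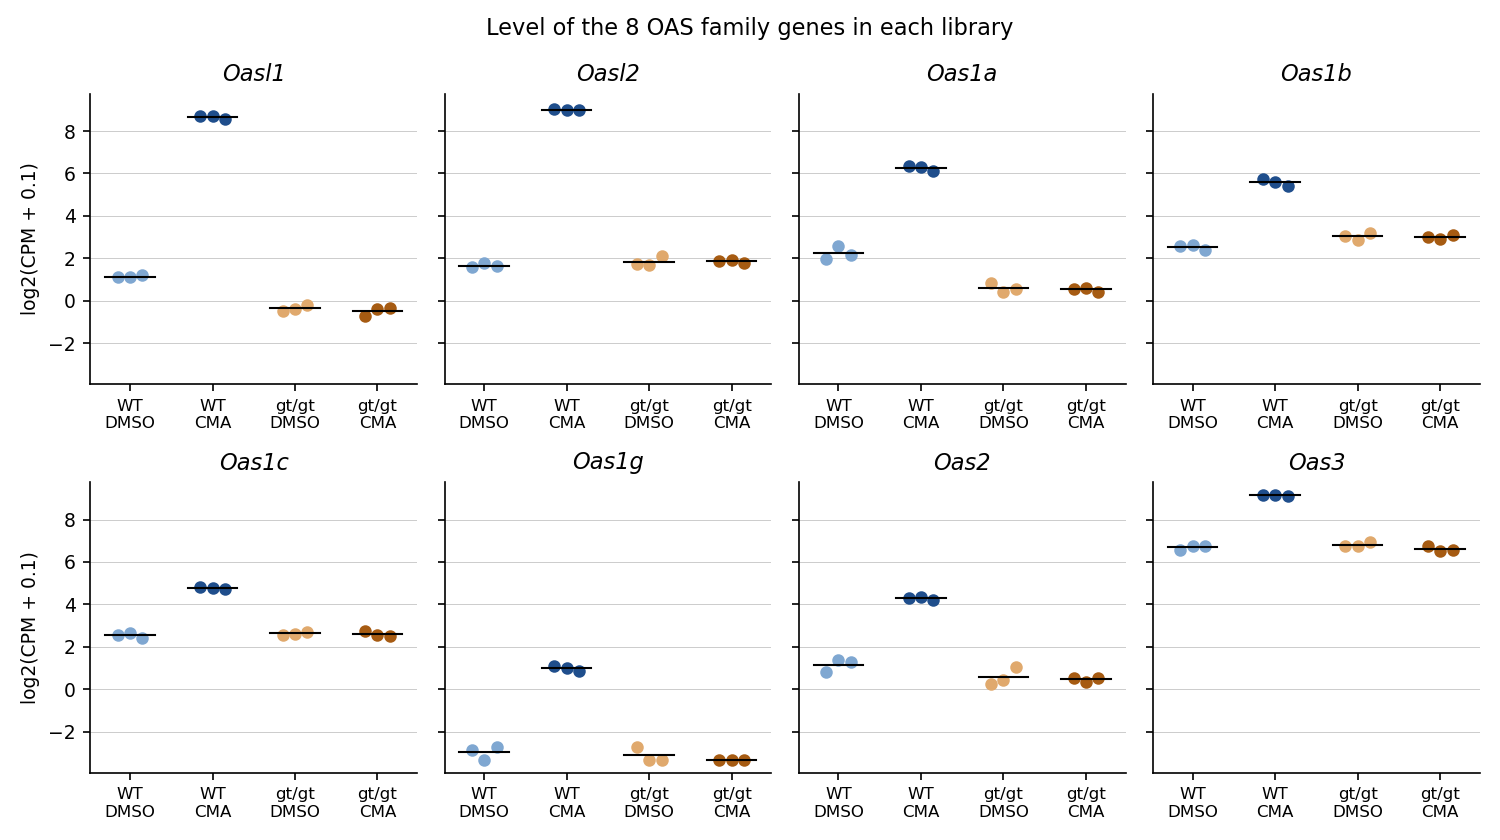
Level of each OAS family gene in the 12 libraries, as log2 of CPM plus 0.1, with gt/gt for STINGgt/gt; points are libraries and bars are means of the log2 values over 3 libraries. In WT with CMA all 3 points stand above all others for every gene, and the STINGgt/gt points with CMA sit near those with DMSO.

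Among the 7 members with enough counts for a fold change, the OAS-like genes moved furthest. Oasl1 encodes a protein without synthetase activity that is known to restrain translation of Irf7 mRNA. It measured 2.04, 2.05 and 2.19 CPM in the WT libraries with DMSO and 421, 425 and 379 CPM with CMA. All CMA libraries were thus far above all DMSO libraries, with a log2 fold change of 7.60 ± 0.0757 (SE), or 194-fold (adjusted p = 1.6e-19, edgeR). Oasl2, whose product retains synthetase activity, was at 2.88, 3.29 and 2.97 CPM with DMSO and at 521, 512 and 515 CPM with CMA. Its log2 fold change of 7.40 ± 0.0774 (SE) corresponded to 169-fold. Among the 11199 genes with a mean count of at least 50, Oasl1 ranked number 7 and Oasl2 number 10 by fold change.

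The ratio of Oasl1 to Oasl2 overlapped between the treatments. Its log2 value in CPM lay between -0.68 and -0.44 with DMSO and between -0.44 and -0.27 with CMA. The ratio was not tested beyond this.

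The Oas1 genes rose to different extents. Oas1a, an active synthetase, was at 3.79, 5.87 and 4.36 CPM with DMSO and at 80.7, 78.1 and 69.0 CPM with CMA in WT T cells. The groups were well apart, and the log2 fold change was 4.02 ± 0.107 (SE), or 16.3-fold. Oas1b went from 5.14 to 6.14 CPM with DMSO to 43.1 to 52.6 CPM with CMA, a log2 fold change of 3.07 ± 0.0964 (SE), or 8.41-fold. Oas1c, its head-to-head neighbour, was at 5.24 to 6.07 CPM with DMSO and at 26.0 to 27.7 CPM with CMA. Its log2 fold change of 2.25 ± 0.0790 (SE), or 4.77-fold, was the smallest of the family. The log2 ratio of Oas1b to Oas1c, taken in CPM without exon length, was between -0.03 and 0.02 in the DMSO libraries and between 0.73 and 0.92 in the CMA libraries.

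Oas1g, another active synthetase, was scarcely seen without CMA. It had 1, 0 and 2 counts in the WT DMSO libraries and 73, 62 and 55 counts with CMA, or 1.73 to 2.04 CPM. The ratio of the summed counts, each relative to its library totals, was 62.3, with an exact 95% interval of 21.0 to 305 that covers counting error only. Its transcript shares much sequence with that of Oas1a. Of all 100-base windows, 31.3% of those in Oas1g transcripts and 40.9% of those in Oas1a transcripts also occur in the other gene, and reads from them cannot be assigned to a single gene. Both genes are therefore undercounted to an extent that the counts do not show. When the 4 Oas1 members were added up to 1 row, CMA raised the sum by 3.25 ± 0.0763 (SE) on the log2 scale in WT T cells.

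Oas2 and Oas3 encode synthetases with repeated catalytic units. Oas2 was at 1.68, 2.48 and 2.29 CPM with DMSO and 19.3, 20.3 and 18.5 CPM with CMA, a log2 fold change of 3.16 ± 0.138 (SE), or 8.92-fold. Oas3 was at 93.1, 107 and 109 CPM with DMSO and at 567, 568 and 557 CPM with CMA. The CMA libraries were again above every DMSO library. The log2 fold change was 2.45 ± 0.0714 (SE), or 5.47-fold, so that the member with the highest level at rest had the second smallest rise. Oasl1 overlaps an antisense gene on 38 exonic bases and Oas1c another on 227, and with the strand setting of the counting unknown these reads cannot be told apart.

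**Figure D2:**
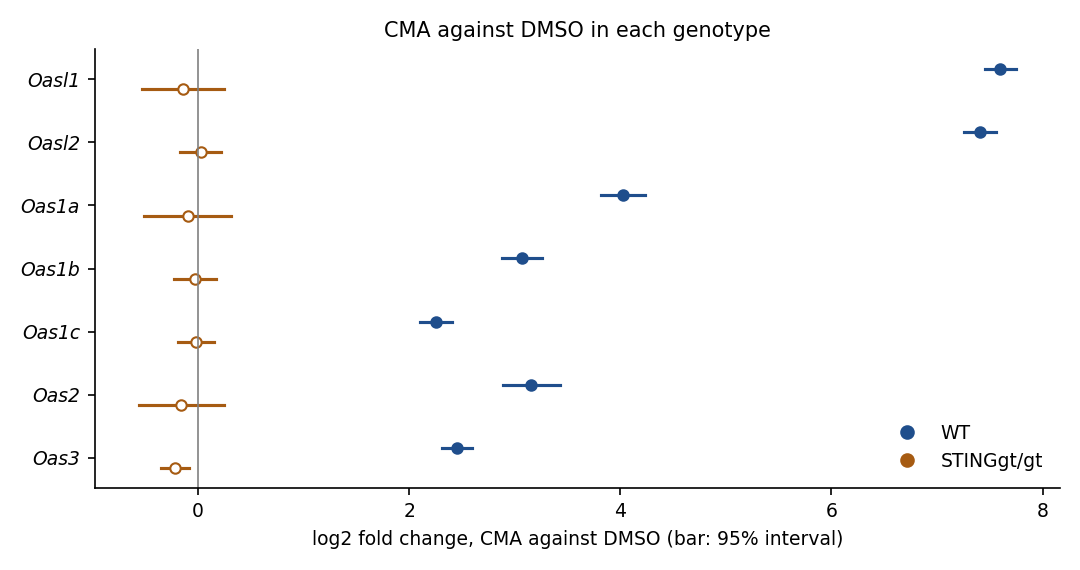
Log2 fold change of CMA against DMSO with its 95% interval for 7 members in WT (blue) and STINGgt/gt (brown) T cells; filled points passed the adjusted p of 0.05, open points did not, and Oas1g is left out because its fitted value has no firm base. In WT the values run from 2.25 for Oas1c to 7.60 for Oasl1, and in STINGgt/gt from -0.22 for Oas3 to 0.02 for Oasl2.

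The make-up of the OAS transcripts was rearranged by CMA in WT T cells. Per kb of exon, Oas3 fell from 60.5% ± 2.51 (SD, n = 3) of the family sum with DMSO to 20.1% ± 0.632 with CMA. Oasl1 went from 3.34% ± 0.252 to 39.3% ± 0.903 and Oasl2 from 1.99% ± 0.0630 to 20.4% ± 0.853, while Oas1a made up 10.2% ± 1.66 and 10.1% ± 0.413. The ranges of the first 3 genes did not overlap between treatments, whereas those of Oas1a did. With CMA the order of levels was Oasl1 (157 ± 9.72 CPM per kb), Oasl2 (81.0 ± 0.720), Oas3 (79.8 ± 0.883), Oas1a (40.3 ± 3.27), Oas1b (24.0 ± 2.39), Oas1c (11.3 ± 0.413), Oas2 (4.36 ± 0.199) and Oas1g (0.810 ± 0.0651), and only Oasl2 and Oas3 overlapped. Because reads shared by Oas1a and Oas1g are not counted, the levels and shares of both are understated and their places in this order are not firm. The family as a whole took 0.0126% of the reads on genes with DMSO and 0.162% with CMA.

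**Figure D3:**
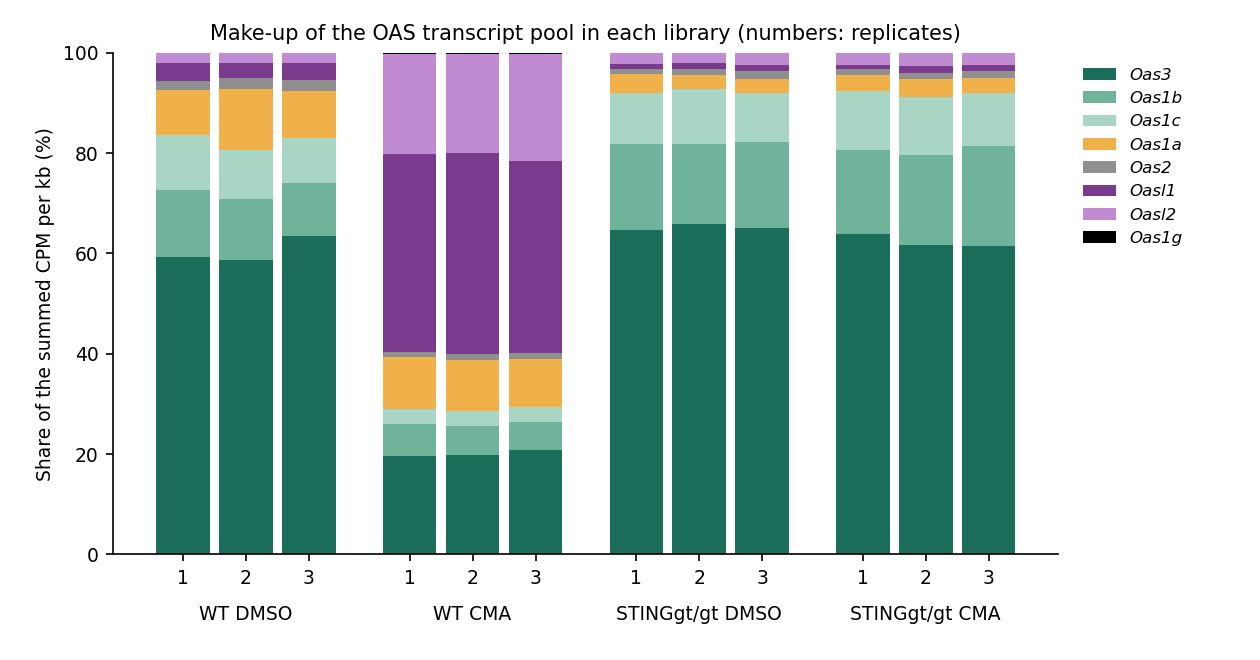
Share of each member in the summed CPM per kb of exon of the OAS family, as stacked bars for each of the 12 libraries (replicates 1 to 3 in each of 4 groups). Oas3 fills 58.8% to 63.4% of the WT bars with DMSO and 19.6% to 20.8% with CMA, where Oasl1 takes 38.4% to 40.2%, and in the STINGgt/gt bars Oas3 takes 64.7% to 65.9% with DMSO and 61.4% to 64.0% with CMA.

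In STINGgt/gt T cells no member passed the test. The edgeR model called 0 of 8, as did DESeq2, and limma on the log2 table called 0 of the 7 members it held. Across all genes 0.398% were higher and 0.920% lower with CMA. At an unadjusted p under 0.05, where 1790 of the 13811 genes tested (13%) were found, 1 of 8 members was, Oas3. It was at 109, 107 and 123 CPM with DMSO and at 106, 91.3 and 93.7 CPM with CMA. All CMA libraries were just below the DMSO libraries, with a log2 fold change of -0.22 ± 0.0692 (SE) and an adjusted p of 0.161 (edgeR), and 11.3% of all genes showed non-overlapping groups in this direction. Fitted with only the STINGgt/gt groups, or with no filter on low counts, Oas3 passed the threshold.

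For the OAS-like genes the STINGgt/gt values stayed within a narrow range. Oasl1 was at 0.618, 0.657 and 0.778 CPM with DMSO and 0.506, 0.656 and 0.676 CPM with CMA, and the 95% interval of its log2 fold change ran from -0.53 to 0.24. For Oasl2 the values were 3.19, 3.09 and 4.14 CPM with DMSO and 3.59, 3.64 and 3.27 CPM with CMA, with an interval from -0.17 to 0.22. The treatments overlapped for both. Over the 7 members other than Oas1g the upper bound of this interval, a normal approximation, was at most 0.32, that of Oas1a. Oas1g had 2, 0 and 0 counts with DMSO and 0 counts in all 3 libraries with CMA, and no fold change is given.

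The effect of CMA differed between genotypes across the family. Tested as the difference of the log2 fold changes in the same edgeR model, 8 of 8 members had the larger value in WT T cells, as did 27.2% of all genes, while 31.6% had the smaller one. The difference was 7.74 ± 0.268 (SE) for Oasl1 (adjusted p = 9.7e-13), 7.38 ± 0.139 for Oasl2, 4.12 ± 0.254 for Oas1a, 3.31 ± 0.258 for Oas2, 3.10 ± 0.142 for Oas1b, 2.67 ± 0.0985 for Oas3 and 2.28 ± 0.119 for Oas1c. Oas1g, which passed the filter only through WT with CMA, had an adjusted p of 0.00348, and without STINGgt/gt DMSO replicate 1, the only STINGgt/gt library with reads of this gene, it was no longer below the threshold.

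The genotypes were also set side by side within each treatment. These comparisons share libraries with the CMA comparisons, so they are not separate evidence. With CMA, 8 of 8 members were higher in WT than in STINGgt/gt T cells (37.0% of all genes were higher and 36.5% lower, and 39.7% did not overlap with WT higher), from a log2 difference of 2.18 ± 0.0761 (SE) for Oas1c to 9.37 ± 0.0864 for Oasl1, or 660-fold. Oas1g, which passed the filter only through the WT libraries of this comparison, had 190 counts in WT and 0 in STINGgt/gt T cells. It was at least 76.2-fold higher in WT when 3 counts over the STINGgt/gt group are taken as the floor, and the exact 95% interval of the ratio began at 61.4.

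With DMSO the counts of members called were not far from the shares of all genes. In this comparison 3 of 8 members were higher in WT, Oas1a, Oasl1 and Oas2, and 1 was lower, Oas1b, where 22.9% of all genes were higher and 19.8% lower. The values below describe single genes. Oas1a was at 3.79, 5.87 and 4.36 CPM in WT and at 1.70, 1.23 and 1.37 CPM in STINGgt/gt T cells. No STINGgt/gt library reached the lowest WT library, and the log2 difference was 1.69 ± 0.171 (SE), or 3.23-fold (adjusted p = 7.4e-07, edgeR). Oasl1 was 3.09-fold higher in WT, with a log2 difference of 1.63 ± 0.155 (SE) and again no overlap between the 2.04 to 2.19 CPM of WT and the 0.618 to 0.778 CPM of STINGgt/gt. Groups that did not overlap with WT higher were found for 25.3% of all genes.

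Oas2 was 1.53-fold higher in WT with DMSO (log2 difference 0.61 ± 0.195 SE, adjusted p = 0.0184, edgeR), but its values overlapped between genotypes. The call was lost when only the DMSO groups were fitted, and also without WT DMSO replicate 2, STINGgt/gt DMSO replicate 1 or STINGgt/gt DMSO replicate 2, with adjusted p-values up to 0.106. Oas1b was at 5.90, 6.14 and 5.14 CPM in WT and at 8.14, 7.25 and 9.09 CPM in STINGgt/gt T cells. It was thus lower in every WT library, as were 22.6% of all genes, with a log2 difference of -0.52 ± 0.111 (SE) and an adjusted p of 0.00128 (edgeR). Oas1c, Oas3 and Oasl2 did not pass, with 95% intervals of the log2 difference from -0.27 to 0.08, from -0.27 to 0.0041 and from -0.39 to 0.03. Oas1g had too few reads for a comparison.

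The opposite directions of Oas1a and Oas1b offset each other. The sum of the 4 Oas1 members differed by 0.04 ± 0.0834 (SE) on the log2 scale between genotypes with DMSO (adjusted p = 0.744, edgeR). Oas1b shares 2.98% of its 50-base windows with other genes, including Oas1a and Oas1g, and none of its 100-base windows. Oas1a made up 10.2% ± 1.66 of the family sum per kb in WT and 3.12% ± 0.588 in STINGgt/gt T cells with DMSO, both understated for its shared sequence. The sum per kb was 24.1 ± 1.76 in WT and 24.5 ± 2.02 in STINGgt/gt T cells. In plain CPM the family sum was 115 to 133 in WT and 126 to 147 in STINGgt/gt T cells, ranges that overlap.

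**Figure D4:**
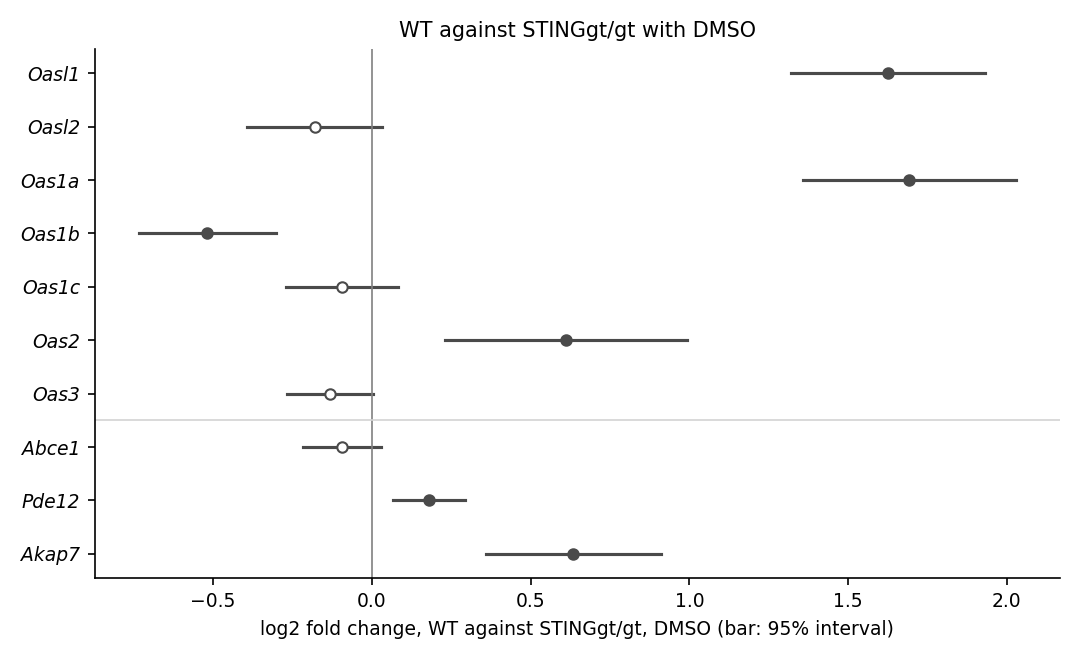
Log2 difference of WT against STINGgt/gt T cells with DMSO and its 95% interval for 7 members (upper part) and 3 further genes of the 2-5A pathway (lower part); filled points passed the adjusted p of 0.05. Oas1a and Oasl1 lie at 1.69 and 1.63, Oas1b at -0.52, and Oas1c, Oas3, Oasl2 and Abce1 are not filled.

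Markers of other cell types moved with these groups. The summed level of 6 B cell markers was 253 to 266 CPM in WT with DMSO, 350 to 378 in WT with CMA and 114 to 122 in STINGgt/gt T cells. For 7 myeloid markers the sums were 53.5 to 60.7, 68.3 to 73.4 and 37.7 to 43.3 CPM, and for 6 markers of CD8 T and natural killer cells 89.1 to 106, 46.3 to 49.1 and 29.1 to 31.9 CPM, in the same order. The myeloid sum rose with CMA through Cst3 (38.6 to 55.7 CPM on average), while Lyz2 was 2.83-fold and Itgam 3.27-fold lower and 3 of the 6 tested did not pass. All 6 B cell markers and 6 of the 6 myeloid markers tested were higher in WT with DMSO, as were 22.9% of all genes. Of the myeloid markers, Csf1r and Cd14 passed the low-count filter through WT libraries alone, so they add nothing to this count. A list of 5 markers of plasmacytoid dendritic cells summed to 98.4 to 108 CPM in WT with DMSO and 444 to 461 CPM with CMA, almost wholly through Bst2, itself an interferon-induced gene, and Siglech and Klk1 were at 0 in all WT libraries. Reads outside annotated genes made up 4.86% to 5.47% of entries in WT with DMSO and 6.79% to 7.16% with CMA. The part of these differences in the OAS values was not tested. In such bulk libraries, fewer cells of a type and less RNA per cell cannot be told apart.

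Further genes of the 2-5A pathway moved in both directions in WT T cells. Of 7 listed genes 3 were tested, of which 1 was higher and 2 were lower with CMA, where 33.0% of all genes were higher and 37.4% lower, so these counts single out nothing. Abce1, a ribosome recycling factor, was at 326 to 400 CPM with DMSO and 194 to 203 CPM with CMA, a 1.78-fold fall (log2 fold change -0.83 ± 0.0636 SE). Pde12, a phosphodiesterase that degrades 2-5A, was 1.65-fold lower with CMA (-0.72 ± 0.0587 SE). Pde12 overlaps Arf4 on the opposite strand over 527 exonic bases. Akap7, an anchoring protein for protein kinase A with a 2-5A phosphodiesterase domain, was at 3.97 ± 0.740 CPM (SD, n = 3) with DMSO and 13.1 ± 0.784 CPM with CMA. All its CMA libraries stood above the DMSO libraries, by a log2 fold change of 1.74 ± 0.116 (SE), or 3.34-fold.

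In STINGgt/gt T cells 0 of these 3 genes passed with edgeR, DESeq2 or limma, where 0.398% of all genes were higher and 0.920% lower with edgeR. At an unadjusted p under 0.05 with edgeR, 0 of the 3 were found, where 13% of all genes were. With DMSO, Akap7 was 1.55-fold higher in WT than in STINGgt/gt T cells without overlap (adjusted p = 0.00168, edgeR), and Pde12 was 1.13-fold higher with overlapping values (adjusted p = 0.0188, edgeR). Oas1d, Oas1e, Oas1f and Oas1h, the further members of the Oas1 cluster, had at most 5 counts in any library and were not tested. Oas1d had 3, 2 and 3 counts in WT with CMA, where Oas1f and Oas1h had 1 count each in a single library, and these 3 genes were at 0 in all other groups.

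Other sensors of double-stranded RNA rose in WT T cells as well. Of the 8 listed sensors and partners, Tlr3 passed the low-count filter through the WT CMA libraries alone and so had to differ. The other 7 were all higher with CMA, where 33.0% of all genes were, with a median log2 fold change of 2.05. Ifih1, which encodes the helicase MDA5, went from 21.5 to 25.2 CPM up to 325 to 344 CPM, a log2 fold change of 3.87 ± 0.0681 (SE). Tlr3, the endosomal receptor for double-stranded RNA, had 2, 0 and 3 counts with DMSO and 27, 19 and 24 with CMA. The smallest effects were those of Adar, the RNA-editing enzyme, at 1.46 ± 0.0431 (SE), and of Mavs, the mitochondrial adaptor of the RNA helicases, at 0.24 ± 0.0515. In STINGgt/gt T cells 1 of the 8, Dhx58 (LGP2), was lower (-0.36 ± 0.0650 SE, adjusted p = 0.0112, edgeR), as were 0.920% of all genes, and 7 did not pass. At an unadjusted p under 0.05 there were 3 of 8 (1790 of all 13811 genes), with Ifih1 (log2 fold change 0.17) and Ddx58 (-0.13) beside Dhx58. With DMSO, Ifih1 was 2.17-fold lower in WT than in STINGgt/gt T cells, opposite in direction to Oas1a and Oasl1, and Adar was lower too, whereas Ddx58, encoding the helicase RIG-I, was 1.39-fold higher (adjusted p = 2.2e-06, edgeR).

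Of 9 genes of interferon signalling upstream of the OAS genes, 6 were higher and 2 lower with CMA in WT T cells. In STINGgt/gt T cells 0 of 9 passed with edgeR, DESeq2 or limma, where 0.398% of all genes were higher and 0.920% lower with edgeR. There 0 of 9 had an unadjusted p under 0.05 with edgeR, against 13% of all genes. Without Ifnb1, which passed the low-count filter through WT with CMA alone, 5 of 8 were higher and 2 lower with CMA in WT T cells, against 33.0% and 37.4% of all genes. Ifnb1, encoding interferon beta, had 0, 1 and 1 counts with DMSO and 58, 55 and 34 with CMA. The ratio of its summed counts, scaled in the same way, was 72.3, with an exact 95% interval of 19.6 to 602. Irf7, a transcription factor of the interferon response, was at 6.74 to 11.2 CPM with DMSO and 459 to 482 CPM with CMA, a log2 fold change of 5.69 ± 0.144 (SE). The lowest effects were those of Irf3, the factor phosphorylated downstream of STING, at -0.25 ± 0.0675 (SE), and of Ifnar2, a chain of the type I interferon receptor, at -0.15 ± 0.0553. With DMSO no gene of this list was higher in WT than in STINGgt/gt T cells and 3 were lower, where 22.9% of all genes were higher and 19.8% lower, among them Irf7 with a log2 difference of -0.89 ± 0.151 (SE).

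**Figure D5:**
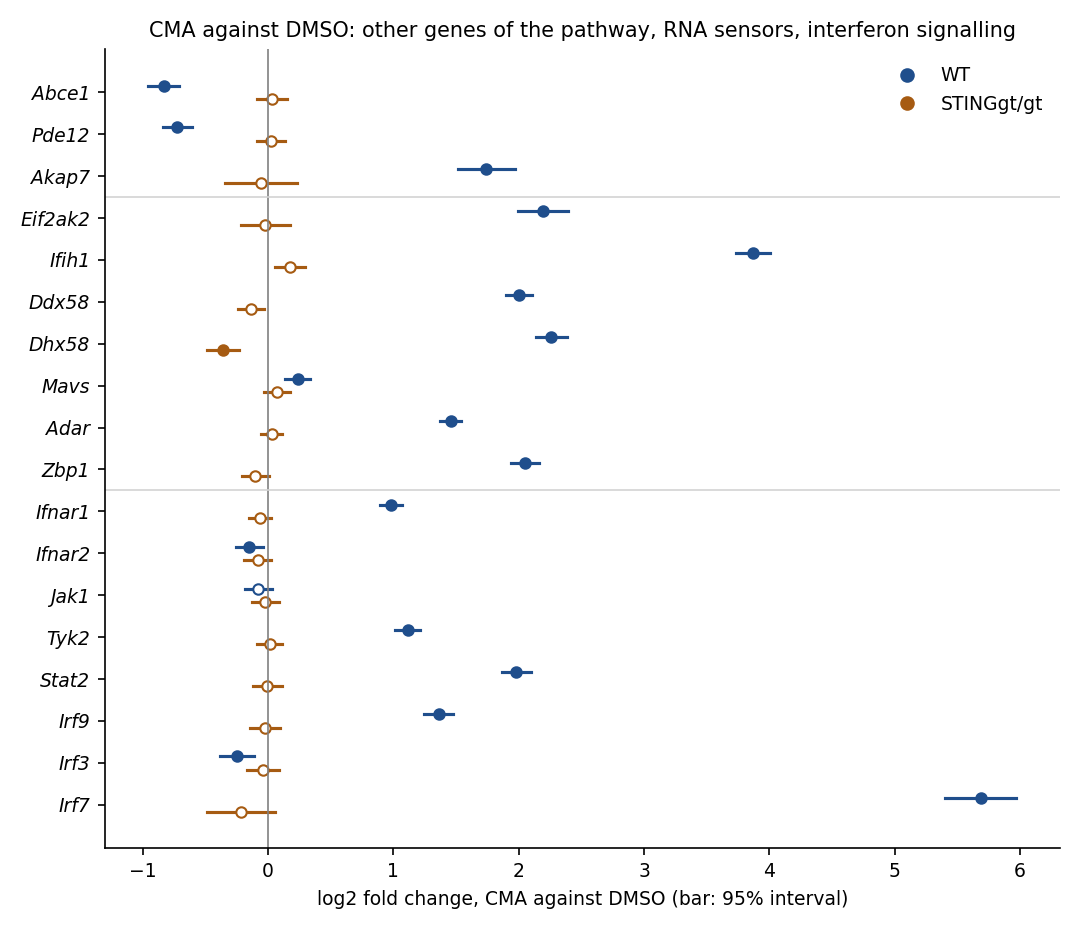
Log2 fold change of CMA against DMSO with its 95% interval in WT (blue) and STINGgt/gt (brown) T cells for the 3 tested genes of the 2-5A pathway, 7 RNA sensors and partners, and 8 genes of interferon signalling, separated by lines; Tlr3 and Ifnb1 are left out for their low counts. Filled points passed the adjusted p of 0.05, with Akap7 at 1.74 in WT, Abce1 and Pde12 below 0, and Dhx58 as the only filled point in STINGgt/gt.

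The profile of the family over the 12 libraries was compared with that of 11192 other genes with a mean count of at least 50. The measure was the root mean square difference between the centred log2 CPM of a gene and the median profile of the 7 members at that count. The 5 genes most alike were Casc1 (0.220), Gm4955 (0.234), AW011738 (0.273), Pmaip1 (0.274) and Fscn1 (0.279). Pmaip1 encodes the BH3-only protein Noxa and Fscn1 an actin-bundling protein. The points share the same 12 libraries and the same contrast of WT with CMA against the rest, and their log2 fold changes with CMA in WT T cells ran from 3.03 for Fscn1 to 3.75 for Gm4955.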

How the data were processed

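RNA sequencing libraries of CD4+ T cells in 4 groups of 3 were analysed from the deposited files. Read counts for each Ensembl gene, without normalization, and a table of log2 values were deposited by the authors. The log2 values were checked to be the log2 of (count + 0.5), shifted by 1 constant per library. The submitters' processing notes name cutadapt 1.3, STAR 2.4.0f1, HTSeq 0.6.1, RSEM 1.2.16 and build GRCm38. The annotation and strand setting are not given in the sources used here, and the library kit was a stranded one. Tally lines that name no gene were left out of library sizes (not unique 27.8% to 30.3%, ambiguous 0.594% to 0.635%, outside genes 4.86% to 7.16%).

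Counts were tested with edgeR 4.0.16 in R 4.3.3 (TMM scaling, filterByExpr by group, glmQLFit and glmQLFTest, 4 groups in a single model), with Benjamini-Hochberg adjustment over all 13811 genes and a threshold of 0.05. The SE of a log2 fold change is its absolute value divided by the square root of the F statistic of this model. The 95% intervals come from this SE by a normal approximation, so they can be narrower than the p-values of the test imply. For Cd5 with CMA in WT the interval was -0.250 to -0.00725 although the unadjusted p was 0.0544 (edgeR). The models were tested on simulated data. CPM per kb used exon lengths of GENCODE M21 on GRCm38, and the promoters are those of RefSeq. Groups follow the sample titles. Alternatives were library-size scaling, DESeq2 1.42.0, limma 3.58.1 on the log2 table, a low-count filter that was absent or stricter (10 counts in all libraries), fits of the compared groups alone, a replicate block, leaving out each library, the 4 Oas1 members summed, an adjusted p under 0.01 and a 2-fold minimum.

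All 8 members were named in every comparison and all 7 genes of the 2-5A list. Some genes fixed for these lists are not reported here, and the counts leave them out. From the sensor and interferon lists the 2 highest and the 2 lowest CMA effects in WT were named, with Dhx58 added as a single call and Irf7, Ifih1, Adar and Ddx58 also described with DMSO, the last of these after its values were seen. The members and lists were chosen with earlier results of these data known. Precision is limited by 3 libraries per group: an exact permutation test of a single gene could not go below p = 0.1. Intervals on counts cover counting error only.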

Additional observations from a re-analysis of the deposited data

Results flagged for a closer look

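The members responded to CMA differently in the 2 genotypes, by the edgeR test of the difference between the effects. On the log2 scale the difference (WT minus STINGgt/gt) was 7.74 for Oasl1, 7.38 for Oasl2, 4.12 for Oas1a, 3.31 for Oas2, 3.10 for Oas1b, 2.67 for Oas3 and 2.28 for Oas1c, and 7 of these 7 passed, where 27.2% of all genes had a larger value in WT. Oas1g passed the low-count filter only through WT with CMA, and its adjusted p of 0.00348 was lost (1.00) without STINGgt/gt DMSO replicate 1. In WT T cells all 3 CMA libraries were above all 3 DMSO libraries for these genes, as for 33.5% of all genes. Among the other genes of the 2-5A pathway the difference was 1.80 for Akap7, -0.75 for Pde12 and -0.86 for Abce1. Groups of 3 libraries are too small to single out a library that stands apart.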

How the results depend on the processing

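Of 844 values of single members under the alternatives, 821 kept their direction and their side of the threshold. With CMA in WT T cells and between genotypes with CMA, the 7 members other than Oas1g were called under every alternative that tested them. Oas1g was called wherever it was tested too, but it passed the low-count filter through WT with CMA alone and so had to differ. In STINGgt/gt T cells, 1 member (Oas3) became lower when no filter was used and 1 (Oas3) when only the 2 groups were fitted. With DMSO, the number of members lower in WT was 0 with limma on the log2 table, which does not hold Oas1b, 2 without a filter (Oas3 added) and 0 with a 2-fold minimum. Leaving out a library gave 1 to 2 lower (2 without WT DMSO replicate 3, where Oas3 was added) and 2 to 3 higher members with DMSO, and 7 to 8 for the difference of the CMA effect. Uncalled values of 5 members in STINGgt/gt T cells changed sign around 0, with log2 fold changes without 1 library of -0.20 to 0.053 for Oas1a, -0.11 to 0.047 for Oas1b, -0.097 to 0.028 for Oas1c, -0.34 to 0.12 for Oas2 and -0.053 to 0.16 for Oasl2. Between genotypes with DMSO the fitted log2 value of Oas1g, which depends on the prior count, went from -0.081 to 3.26. The cause was not tested.

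The labels do not say that replicate numbers pair the samples, and same-numbered libraries deviated together by correlations of only 0.00291 to 0.111, with 5 of 6 libraries closest to their own number. The sample names in the labels share a first digit between the DMSO and CMA library in 5 of the 6 same-numbered pairs, but not in STINGgt/gt replicate 2, and the labels do not say what the digit means. A replicate block by this digit, chosen after seeing the data and with both STINGgt/gt libraries numbered 2 standing alone, left the members at 8 higher with CMA in WT, 0 in STINGgt/gt and 8 for the difference. Over all genes its calls in STINGgt/gt T cells were 12 upward and 31 downward, and the uncalled value of Oasl2 there became -0.084. With a replicate block by number within each genotype the member counts stayed at 8 higher with CMA in WT, 0 in STINGgt/gt and 8 for the difference. Between genotypes the block joined WT and STINGgt/gt libraries that share only a number, so it does not check a pairing. The counts there stayed at 3 higher and 1 lower with DMSO and 8 higher with CMA. All counts of 8 include Oas1g, which passed the low-count filter through WT with CMA alone. The block within each genotype raised the calls over all genes in STINGgt/gt T cells from 55 to 130 higher and from 127 to 233 lower. Over all alternatives these counts ran from 2 to 268 and from 2 to 388. A 2-fold minimum left 1287 genes higher and 1061 lower with CMA in WT, 1201 and 1008 for the difference, 791 and 215 between genotypes with DMSO and 1797 and 1139 with CMA.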
